A study of Mus musculus with 15 samples.

Results

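One day after a damaging noise exposure, gene expression in the mouse auditory nerve was set against that of unexposed animals. The comparison rested on 6 of the 15 arrays of the series, chosen by their labels: 3 arrays from animals taken 1 day after noise and 3 from unexposed controls. All 13644 genes with a gene-annotated probe set above the filter on dim signals were tested. The animals were CBA/CaJ mice aged 5 to 12 weeks. Noise was an octave band of 8 to 16 kHz at 106 dB SPL given for 2 h; the controls received no noise. The other 9 arrays came from animals taken right after the exposure, at 7 days or at 14 days (3 each), and entered the fit as noise-exposed groups of their own. Each sample was the nerve tissue of both ears of 1 animal: the cochlea was stripped of its outer bone, its lateral wall and most of its sensory epithelium, and the central core with the nerve was kept. All 3 control animals were female and all 3 animals at 1 day were male, so that noise and sex cannot be told apart from these 6 arrays alone. The other noise groups each held 1 male and 2 females, and through them a fit with sex as a term could be made. Shared litters or dissection days are not stated in the labels, and with n = 3 per group the p-values measure the spread among these animals only.

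The auditory nerve is made of the axons of spiral ganglion neurons, whose cell bodies lie in the central core of the cochlea. Schwann cells wrap these axons on the cochlear side and satellite glia wrap the cell bodies, while oligodendrocytes and astrocytes take over at the end nearest the brainstem. Resident macrophages lie among the fibres, and a fibrous and bony matrix surrounds the whole. Loud noise is known to injure the synapses between hair cells and these neurons, to disturb myelin and to draw monocytes from the blood.

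At 1 day rises were called among monocyte-attracting chemokines, macrophage and complement genes, and genes listed for axon injury. Which cells raised them was not tested. The chemokine, macrophage, complement and axon injury lists held 8, 9, 3 and 8 rises, and 2, 5, 0 and 3 with sex as a term. Among the genes that passed the test, the largest rises were those of the chemokine Ccl12 (12.3-fold), the neuropeptide precursor Vgf (7.5-fold) and the chemokine Cxcl10 (4.95-fold). The falls were smaller and touched single genes of myelin, of spiral ganglion neurons and of cartilage, bone and tendon. Genes outside the 4 classes, such as Hpgd and Tfrc, fell as well. In all, 207 of the 13644 genes (1.52%) rose and 227 (1.66%) fell at an adjusted p under 0.05, together 3.18%, by limma with Benjamini-Hochberg adjustment. Of these, 25 rises and 4 falls were at least 2-fold. Larger differences, of -6.81 and 6.01, were measured in Xist and Eif2s3y, genes of the X and the Y chromosome, which did not pass the test in the fit of all groups, where the other noise groups hold both sexes (adjusted p = 0.0604 and 0.0727). With sex as a term 38 genes (0.279%) rose and 37 (0.271%) fell. All 434 called genes kept their direction with the term, and their median absolute change was 0.42 without and 0.43 with it, while the median standard error over all genes went from 0.097 to 0.129. The total of 434 became 241, 231 and 125 without control replicates 1, 2 and 3 and 466, 112 and 186 without 1-day replicates 1, 2 and 3.

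Nerve and myelin genes gave bright signals, and genes of neighbouring structures did too. The neurofilament gene Nefl stood at 13.45, 13.37 and 13.46 in the controls on the log2 scale, and the peripheral myelin gene Pmp22 at 13.37, 13.30 and 13.36. Genes of the cochlear lateral wall and its fibrocytes were also bright although that wall had been dissected away: Otos, made by fibrocytes, stood at 13.78, 13.92 and 13.91. The bone gene Dmp1 stood at 11.48, 11.41 and 12.01. The mean level of 9 hair cell genes lay between 5.83 and 6.03 in the controls and between 5.73 and 6.34 at 1 day. Control replicate 3 stood apart: over 10 neutrophil genes its median lay 1.5 above the control mean, over 11 bone genes 0.62 above and over 20 oligodendrocyte genes 0.32 below. Some values that rest on this array are given without it as well, and for others only its single value is shown.

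Nearly all called immune genes rose, and the other classes held calls both ways. Of 249 immune genes tested, 31 rose and 1 fell, with a median change of 0.23 (log2) against -0.01 over all genes tested. Of 151 glial genes, 3 rose and 8 fell. Of 224 neuronal genes, 13 rose and 13 fell. Of 209 matrix genes, 4 rose and 11 fell. Across all genes tested, 10.1% had every 1-day array above every control array and 12.5% had every one below; in the immune class 110 genes lay above and 11 below, and in the glial, neuronal and matrix classes 17, 41 and 21 lay above and 31, 53 and 35 below. With sex as a term the immune, glial, neuronal and matrix classes held 9, 0, 3 and 3 rises and 1, 1, 6 and 3 falls. Without control replicate 1, 2 or 3 the immune rises numbered 17, 17 and 22, and without 1-day replicate 1, 2 or 3 they numbered 32, 13 and 16. In the same order the glial falls numbered 4, 6, 1, 5, 1 and 4, the neuronal rises 8, 10, 7, 13, 5 and 7, the neuronal falls 8, 7, 5, 15, 5 and 8, and the matrix falls 12, 10, 5, 10, 7 and 7. Without control replicate 3, and without 1-day replicate 2, the glial class had 0 rises by limma. The counts of glial genes at an unadjusted p under 0.05 in the full fit were 11 higher and 29 lower. Over all 13644 genes these counts were 1050 higher and 1397 lower, and each unadjusted count given below is to be read beside them. In bulk tissue, more cells of a type and more RNA per cell cannot be told apart, and the same holds for fewer and less.

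**Figure D1:**
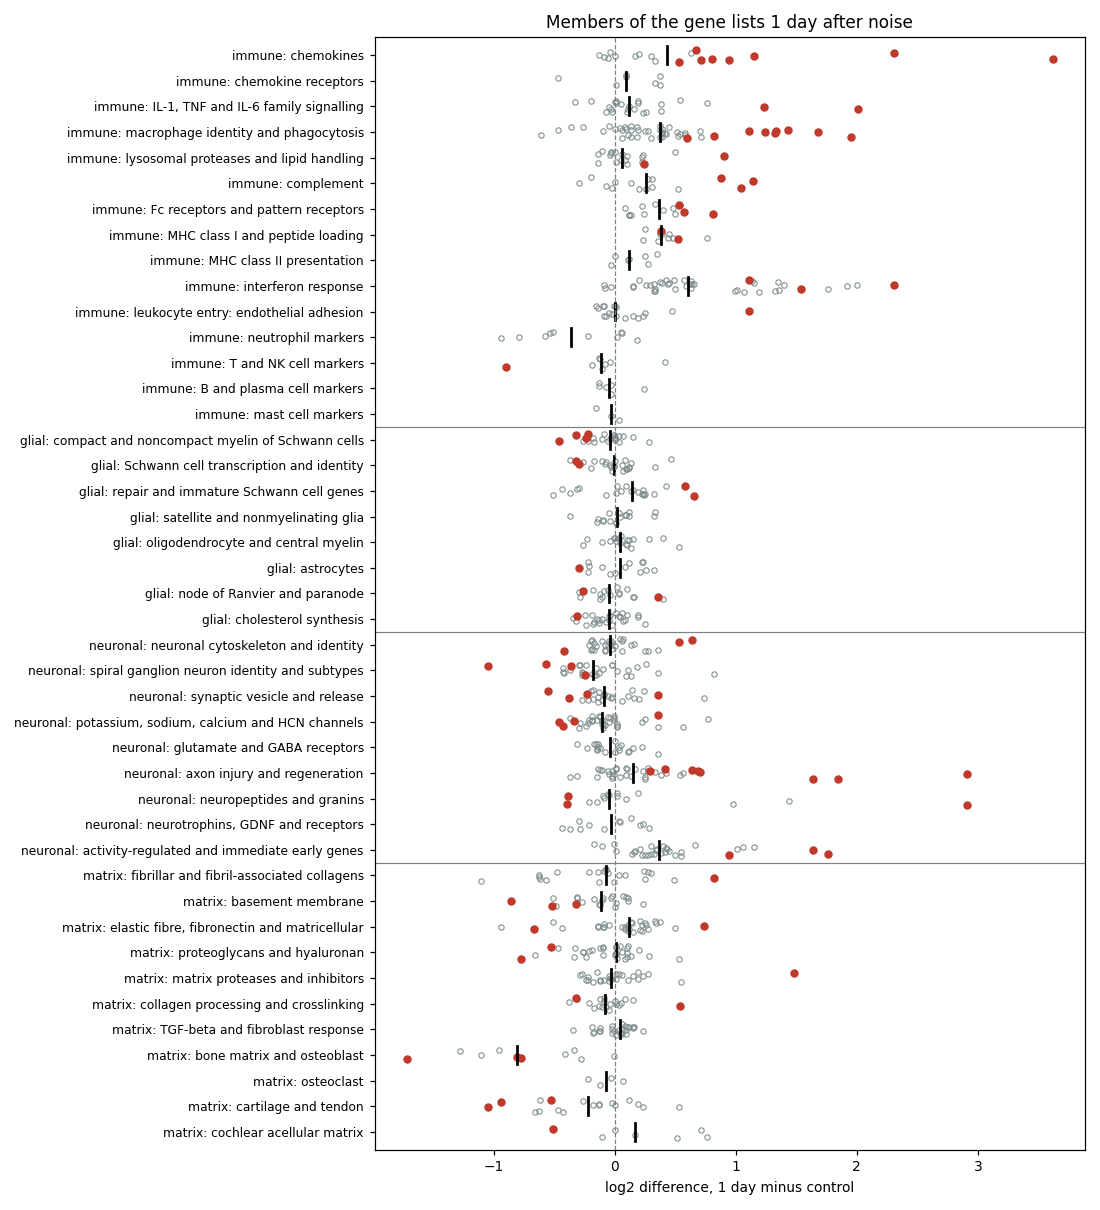
Change of each tested gene from control to 1 day (log2 scale, horizontal axis) for the gene lists of the 4 classes (1 row each on the vertical axis); red filled points are called genes, open grey points are not, and the black bar is the list's median. The chemokine list has 8 of 18 genes called, all higher, while the bone list has its median at -0.81 with 3 of 11 called, all lower.

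Chemokines recruit leukocytes, and those that bind the receptor Ccr2 draw monocytes out of the blood. Of 26 chemokine genes with a gene-annotated probe set, 18 passed the dim-signal filter and were tested. Of these 18, 8 rose and none fell, and the list's median change was 0.43. The filter used a mean that includes the 1-day arrays, so this share and median can be tilted toward rises. Ccl12, a ligand of Ccr2, stood at 4.13, 4.66 and 4.55 in the controls and at 6.98, 8.52 and 8.69 at 1 day, a change of 3.62 ± 0.41 (SE) with an adjusted p of 0.000876. The 2 groups did not overlap, and 1-day replicate 1 was the lowest of the 3. The control values lie around the dim-signal filter of 4.70, where array values flatten, so the fold is that of the measured signals and may be compressed. Ccl7, another Ccr2 ligand, stood at 4.33, 4.49 and 4.62 against 5.38, 5.45 and 5.44 and rose by 0.94 ± 0.21 (adjusted p = 0.0258). Ccl2, the best known of the 3, stood at 4.32, 4.72 and 4.54 against 5.44, 5.87 and 5.73 and rose by 1.15 ± 0.28 (adjusted p = 0.0399). Right after the noise Ccl2 was 1.03 above control and Ccl12 0.40 above, a difference between the genes that was not tested. Ccl12 kept its call with sex as a term (adjusted p = 0.0159), while Ccl7 had a change of 0.52 (adjusted p = 0.298) and Ccl2 of 0.74 (adjusted p = 0.335). The Ccl2 call was also lost without any one of the 6 arrays other than 1-day replicate 1. The receptor gene Ccr2 itself stood at 5.69, 5.72 and 5.74 against 5.58, 5.68 and 5.93, with overlapping groups (0.01 ± 0.11).

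The interferon-induced chemokines Cxcl10 and Cxcl11, which attract T cells, rose as well. Cxcl10 stood at 4.18, 4.38 and 4.17 in the controls and at 5.71, 7.29 and 6.65 at 1 day (2.31 ± 0.32, adjusted p = 0.00186; 0.0333 with sex as a term). Every 1-day array lay above every control, with replicate 2 the highest. Cxcl11 rose by 0.80 ± 0.14 (adjusted p = 0.00878), Ccl5 by 0.53 ± 0.12 and the eosinophil attractant Ccl11 by 0.71 ± 0.17. Cxcl12, a chemokine of stromal cells, stood at 9.88, 9.83 and 9.90 against 10.50, 10.56 and 10.55 and rose by 0.67 ± 0.11 (adjusted p = 0.00672). With sex as a term Cxcl11, Ccl5, Ccl11 and Cxcl12 had adjusted p-values of 0.109, 0.0729, 0.134 and 0.0639, so that the list had 2 calls, Ccl12 and Cxcl10. Without 1-day replicate 1 the list had 7 rises, and without any other of the 6 arrays it had 4.

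Interferon-stimulated genes are switched on through a short promoter element, the interferon-stimulated response element, bound by a complex of Stat and Irf proteins. Its core was searched as GAAANNGAAA on both strands of the 300 bases that run from 250 before to 50 after each annotated gene start, in RefSeq's annotation of GRCm38.p6. The AP-1 motif TGANTCA was searched in the same way. The promoters of the 3 interferon-list genes that rose, Cxcl10, Gbp2 and Gbp3, and of Psme1, a gene of the MHC class I pathway that rose with them, are shown 5′ to 3′ in the direction of the gene, because all 4 hold the core. Capitals mark the core, which appears as GAAANNGAAA or, where it lies on the other strand, as the reverse complement of that, and in Cxcl10 and Gbp2 also 1 AP-1 motif.
Cxcl10, chr5:92348840-92349139, minus strand: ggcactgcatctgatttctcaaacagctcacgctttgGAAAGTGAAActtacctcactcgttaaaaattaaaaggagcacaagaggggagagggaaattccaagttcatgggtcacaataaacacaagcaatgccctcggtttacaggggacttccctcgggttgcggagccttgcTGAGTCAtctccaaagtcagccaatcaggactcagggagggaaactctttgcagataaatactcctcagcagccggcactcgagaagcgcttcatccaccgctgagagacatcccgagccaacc
Gbp2, chr3:142620413-142620712, plus strand: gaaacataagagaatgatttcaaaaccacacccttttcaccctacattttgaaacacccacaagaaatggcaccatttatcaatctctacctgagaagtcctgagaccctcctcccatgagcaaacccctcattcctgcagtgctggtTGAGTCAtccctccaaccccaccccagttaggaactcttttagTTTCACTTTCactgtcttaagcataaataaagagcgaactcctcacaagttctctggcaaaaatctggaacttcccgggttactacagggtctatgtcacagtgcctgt
Gbp3, chr3:142559794-142560093, plus strand: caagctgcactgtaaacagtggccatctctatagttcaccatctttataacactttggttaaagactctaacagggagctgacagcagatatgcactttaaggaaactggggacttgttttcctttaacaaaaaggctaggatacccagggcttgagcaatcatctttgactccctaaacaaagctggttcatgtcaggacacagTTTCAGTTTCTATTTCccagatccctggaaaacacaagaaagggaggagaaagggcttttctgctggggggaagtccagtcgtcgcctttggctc
Psme1, chr14:55578244-55578543, plus strand: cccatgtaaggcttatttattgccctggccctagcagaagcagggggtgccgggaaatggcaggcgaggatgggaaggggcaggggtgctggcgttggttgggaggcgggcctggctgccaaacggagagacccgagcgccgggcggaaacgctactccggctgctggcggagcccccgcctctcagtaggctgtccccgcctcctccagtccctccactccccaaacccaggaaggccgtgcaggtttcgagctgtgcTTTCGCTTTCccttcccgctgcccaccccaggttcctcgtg
In Gbp3 the capitals hold 2 overlapping cores; a second annotated start of that gene, chr3:142560106-142560405, has none. The core is in 3.44% of all 32851 RefSeq promoters of that length and the AP-1 motif in 7.81%. Of the 42 interferon-response genes tested, 32 had a promoter in the table and 17 of these held the core; with 76.2% of the list matched, no comparison of shares was made. A match describes the letters only.

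Interferon-response genes code for antiviral and antigen-processing proteins. Of the 42 tested, 3 rose and none fell, with the list's median change at 0.61; 31 had all 1-day arrays above all controls and none had all below. Gbp3, a guanylate-binding protein, stood at 7.11, 7.11 and 7.18 in the controls and at 8.15, 9.02 and 8.86 at 1 day (1.54 ± 0.40, adjusted p = 0.0493). Gbp2 stood at 7.71, 7.55 and 7.44 against 8.53, 8.68 and 8.83 (1.11 ± 0.29, adjusted p = 0.048). In both, the 1-day arrays lay above all controls by more than the spread of either group, and both calls sat close to the threshold: Gbp2 lost its call without any one of the 6 arrays, Gbp3 without any but 1-day replicate 1, and with sex as a term the adjusted p-values were 0.194 and 0.125. Most of the other members lay above the controls without passing the test. Ifit3 stood at 7.32, 7.30 and 7.31 against 8.56, 9.68 and 9.44 (1.92 ± 0.57, adjusted p = 0.0809), and Irf7, the regulator of the interferon loop, at 5.18, 5.47 and 5.69 against 6.35, 6.81 and 7.39 (1.40 ± 0.44, adjusted p = 0.0938). Usp18, a brake on interferon signalling, stood at 5.40, 5.27 and 5.61 against 6.59, 7.74 and 7.23 (adjusted p = 0.161). In each of these 3 genes replicate 1 was the lowest of the 1-day arrays, and over the whole list its median was 0.28 above the control mean against 0.74 and 0.69 in the other two. The arrays of the other noise times varied as well: 14-day replicate 2 had a list median of 1.32, and at 14 days Ifit3 was 1.36 and Irf7 1.08 above control on average. When the fit was limited to the 6 arrays of the 2 groups, 14 of the 42 genes rose. In the fit of all groups 5 rose without 1-day replicate 1, and 1 rose when any 1 of the other 5 arrays of these groups was left out instead. Among genes outside the lists, chosen after their values were seen, the membrane antiviral gene Ifitm3 rose by 1.35 ± 0.32 (adjusted p = 0.0366; 0.113 with sex as a term), from 10.42, 10.61 and 10.36 to 11.55, 11.94 and 11.96.

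**Figure D2:**
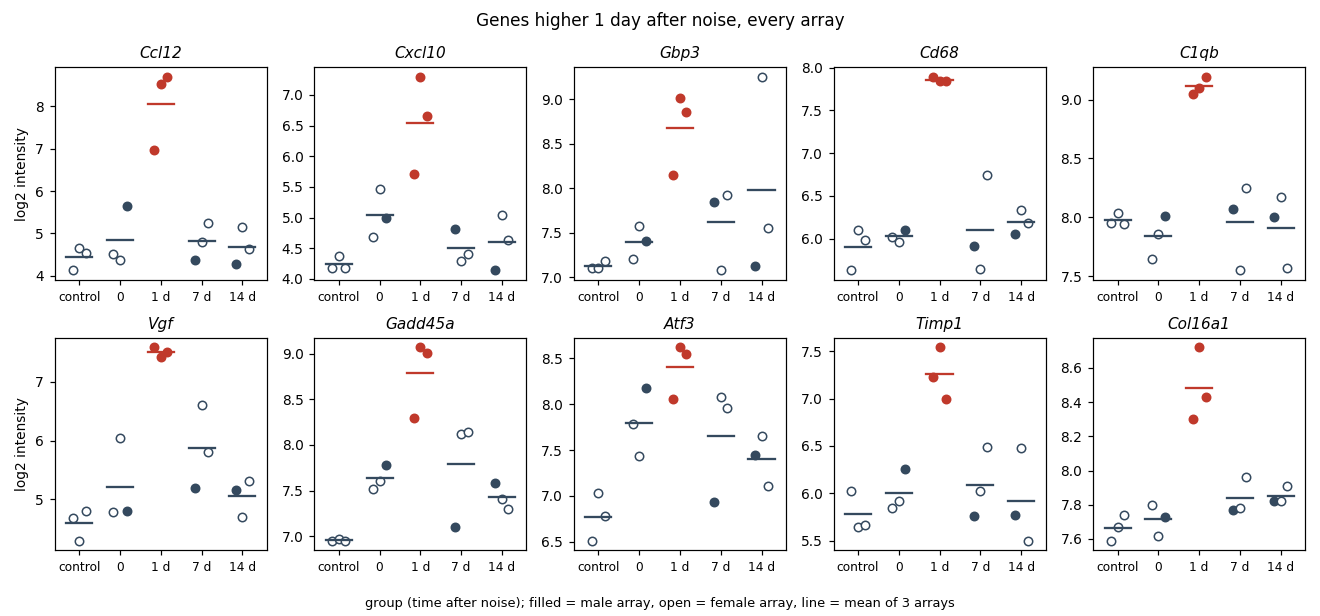
Log2 expression on each of the 15 arrays (vertical axis) by group (horizontal axis: control, right after noise, 1, 7 and 14 days) for 10 genes that rose; filled points are males, open points females, red marks 1 day and the line is the group mean. Cd68, C1qb, Ccl12 and Gbp3 have all 3 one-day arrays above every control array.

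Macrophages clear debris and are recognised by lysosomal, scavenger-receptor and leukocyte surface genes. Of 49 macrophage genes tested, 9 rose and none fell (median change 0.37; 21 above all controls and 2 below). Cd68, a lysosomal glycoprotein of phagocytes, stood at 5.63, 6.10 and 5.99 in the controls and at 7.89, 7.84 and 7.85 at 1 day, a change of 1.95 ± 0.20 (adjusted p = 0.000574). The 1-day arrays were nearly equal and lay far above the controls. Ly86, a partner of a Toll-like receptor relative, stood at 7.31, 7.45 and 7.29 against 8.62, 8.58 and 8.57 (1.24 ± 0.13, adjusted p = 0.000574). Ms4a6d, a membrane gene of monocytes and macrophages, stood at 4.76, 4.07 and 4.24 against 5.81, 6.28 and 6.03 (1.68 ± 0.22). Aif1, the gene of the microglia and macrophage marker Iba1, rose by 1.33 ± 0.18 from 5.08, 5.51 and 5.15 to 6.42, 6.51 and 6.80. These 4 genes kept their calls with sex as a term, at adjusted p-values of 0.0101, 0.0151, 0.0412 and 0.0342. Leukocyte genes shared with neutrophils and lymphocytes also rose: Cd52 by 1.43 ± 0.25, Cd53 by 0.82 ± 0.12, Coro1a by 1.32 ± 0.29 and the integrin chain Itgb2 by 1.11 ± 0.21. The scavenger receptor Msr1 rose by 0.60 ± 0.14. Their adjusted p-values with sex as a term were 0.0729, 0.0646, 0.121, 0.135 and 0.0931. In Cd52, Coro1a and Itgb2 control replicate 3 was the highest control. Without that array 13 of the 49 genes rose, and without 1-day replicate 2 it was 6. Itgb2 lost its call without 1-day replicate 2.

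Other widely used macrophage genes did not pass the test. Adgre1, the F4/80 gene, stood at 5.65, 6.11 and 6.12 against 5.99, 6.06 and 6.21, and Csf1r, the receptor that macrophages need to survive, at 9.50, 9.46 and 9.59 against 9.71, 9.70 and 9.70 (adjusted p = 0.384). Cd163, a marker of perivascular macrophages, stood at 5.11, 4.72 and 5.30 against 4.43, 4.34 and 4.54, below the controls on every array but not past the threshold (adjusted p = 0.0884). Cx3cr1, high in resident macrophages, stood at 6.34, 6.46 and 6.32 against 6.74, 6.73 and 6.76 (adjusted p = 0.154). Mrc1 and Tyrobp lay above all controls with adjusted p-values of 0.0586 and 0.0619. Changes within the list ran from -0.61 in Cd163 to 1.95 in Cd68. Outside the lists, and picked after its values were seen, the macrophage lectin Mgl2 rose by 1.03 ± 0.22 (adjusted p = 0.0217; 0.0905 with sex as a term).

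Complement starts with C1q, made by tissue macrophages, which tags debris and synapses. All 3 chains rose and stood well clear of the controls. C1qb stood at 7.95, 8.04 and 7.94 against 9.05, 9.10 and 9.19 (1.14 ± 0.16, adjusted p = 0.00226), C1qc at 7.39, 7.49 and 7.43 against 8.40, 8.48 and 8.55 (1.04 ± 0.17, adjusted p = 0.00577) and C1qa at 8.36, 8.36 and 8.32 against 9.12, 9.10 and 9.47 (0.88 ± 0.19, adjusted p = 0.0217). Levels in the 2 groups were tight for C1qb and C1qc; C1qa had 1-day replicate 3 above the others, and its call was lost without any one array other than 1-day replicate 1. The adjusted p-values with sex as a term were 0.0637, 0.0724 and 0.149. These 3 genes were the only calls among 15 complement genes tested; the C1 inhibitor Serping1 stood at 10.37, 10.16 and 10.24 against 10.58, 10.56 and 10.55 (adjusted p = 0.327). Of 19 lysosomal genes, the proteases Ctsc and Lgmn rose: Ctsc from 8.20, 8.48 and 8.41 to 9.18, 9.29 and 9.31 (0.90 ± 0.12, adjusted p = 0.00152; 0.0375 with sex as a term), and Lgmn by 0.24 ± 0.05 (adjusted p = 0.0243; 0.19 with the term).

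Genes of sensing and of MHC class I presentation lay mostly above the controls, and some passed the test. Of 14 Fc and pattern-recognition receptor genes, 3 rose, and 9 had every 1-day array above every control. Fcer1g, the signalling chain of Fc receptors, stood at 6.98, 7.15 and 7.34 against 7.70, 7.78 and 7.69 (0.57 ± 0.12, adjusted p = 0.0217). Fcgr3, a receptor for IgG, rose by 0.53 ± 0.12 and Pycard, the inflammasome adaptor, by 0.81 ± 0.16. Pycard kept its call with sex as a term (adjusted p = 0.0185) and Fcer1g and Fcgr3 had adjusted p-values of 0.109 and 0.14; leaving out control replicates 1 or 2 alone, or 1-day replicates 2 or 3, ended the call of each of the 3. In the MHC class I list 10 of 12 genes had every 1-day array above every control, and all 12 changes were positive, from 0.23 to 0.76. The list held 2 rises, both parts of the proteasome that cuts peptides for display: Psmb10 by 0.38 ± 0.08 (adjusted p = 0.0229) and Psme1 by 0.52 ± 0.12 (adjusted p = 0.0258). Neither was called with sex as a term (0.11 and 0.0729). Of 7 MHC class II genes none was called by limma, and 0 had an unadjusted p under 0.05; the invariant chain Cd74 stood at 7.20, 7.00 and 7.24 against 7.33, 7.36 and 7.12.

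Among 24 genes of IL-1, TNF and IL-6 family signalling, the oncostatin M receptor Osmr and the feedback inhibitor Socs3 rose. Socs3 stood at 5.95, 6.30 and 5.89 in the controls and at 7.74, 8.54 and 7.88 at 1 day (2.01 ± 0.39, adjusted p = 0.0135), and Osmr at 7.09, 6.98 and 6.66 against 8.20, 8.28 and 7.94 (1.23 ± 0.23, adjusted p = 0.0105). Against control they stood at 1.97 and 1.15 right after the noise and at -0.13 and 0.00 at 7 days. Neither was called with sex as a term (adjusted p = 0.138 and 0.138), nor without control replicate 3 or 1-day replicate 2. The cytokine genes Il1b and Tnf stood at 4.90, 5.15 and 5.35 and 5.21, 5.49 and 5.39 in the controls and at 5.20, 5.08 and 5.15 and 5.43, 5.36 and 5.29 at 1 day, with overlapping groups.

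Markers of other blood cells gave almost no calls. Of 10 neutrophil genes none was called by limma and 0 had an unadjusted p under 0.05, and the list's median change was -0.37 (0.33 without control replicate 3). S100a8, a neutrophil granule gene, stood at 6.88, 8.20 and 10.82 against 7.50, 8.11 and 8.55. The mean level over the neutrophil list ranged from 5.36 to 7.83 in the controls and from 5.77 to 6.30 at 1 day. Of 6 B cell, 3 mast cell and 7 chemokine receptor genes none was called by limma, with 0, 0 and 2 at an unadjusted p under 0.05. Of 8 T and NK cell genes the only call was a fall of Btla, an inhibitory receptor of lymphocytes, from 5.73, 5.69 and 5.95 to 5.00, 4.69 and 4.98 (-0.90 ± 0.17, adjusted p = 0.0141; 0.0232 with sex as a term). Btla was also low in the other noise groups (-0.83, -0.61 and -0.80 against control right after, at 7 and at 14 days), and its call was lost without control replicate 3 or 1-day replicate 2. Of 19 genes for leukocyte entry through the vessel wall 1 was called, Itgb2.

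Called glial genes were mostly falls, and they made up 7.28% of the class beside 3.18% of all genes. Of 23 genes of Schwann cell myelin, 4 fell and none rose, where 1.66% of all genes fell; the list's median change was -0.04. Fa2h, which makes the hydroxylated lipids of myelin, stood at 9.45, 9.05 and 9.31 in the controls and at 8.78, 8.73 and 8.91 at 1 day (-0.46 ± 0.10, adjusted p = 0.029). All 3 one-day arrays lay below all controls. Cnp, an enzyme of noncompact myelin, stood at 13.15, 13.12 and 13.07 against 12.81, 12.88 and 12.94 (-0.24 ± 0.04, adjusted p = 0.00783). Ncmap, a protein of noncompact peripheral myelin, stood at 11.04, 10.82 and 10.87 against 10.71, 10.50 and 10.57 (-0.32 ± 0.07, adjusted p = 0.0329). Ndrg1, a Schwann cell gene mutated in an inherited neuropathy, stood at 11.98, 12.10 and 12.04 against 11.76, 11.77 and 11.92 (-0.22 ± 0.05, adjusted p = 0.0295). Cnp kept its call with sex as a term (adjusted p = 0.0456) and without each array; Fa2h, Ncmap and Ndrg1 had adjusted p-values of 0.123, 0.0996 and 0.249 with the term. Fa2h lost its call without control replicates 1 or 3 or 1-day replicates 1 or 2, and Ncmap without control replicates 1 or 3 or 1-day replicates 2 or 3. Without control replicates 1, 2 and 3 the list had 2, 3 and 1 falls, and without 1-day replicates 1, 2 and 3 it had 2, 1 and 3. The main structural myelin genes were not called: Mbp stood at 14.02, 13.87 and 13.86 against 13.89, 13.92 and 13.95 (0.00 ± 0.05), Pmp22 at 13.27, 13.21 and 13.27 at 1 day (adjusted p = 0.229) and Mag at 9.13, 9.00 and 8.61 against 8.78, 8.86 and 9.07.

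Qk, the Quaking RNA-binding protein named in the title of the series, regulates splicing and stability of myelin transcripts. It stood at 11.28, 11.26 and 11.38 in the controls and at 11.39, 11.51 and 11.38 at 1 day, 0.12 ± 0.07 with an adjusted p of 0.424, so no change passed the test on its brightest probe set. Its 7 probe sets disagreed: they ranged from -0.22 to 0.37 in the same comparison, and the probe set at 0.37 went from a control mean of 10.64 to 11.01.

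Among 25 genes of Schwann cell identity, 2 fell. S100b, a calcium-binding protein of Schwann cells and astrocytes, stood at 12.47, 12.56 and 12.57 against 12.06, 12.27 and 12.38 (-0.30 ± 0.08, adjusted p = 0.0497), and lost its call without any one array but 1-day replicate 3 and with sex as a term (0.213). Yy1, a transcription factor needed for myelination, fell by 0.32 on 1 probe set (adjusted p = 0.0158; 0.0873 with sex as a term) while another went from 6.62 to 7.31, and over all its probe sets the mean change was 0.10, so its direction depends on the probe set. Its call also ended without control replicate 3 or 1-day replicates 2 or 3. The regulators Sox10 and Egr2 stood at 9.72, 9.63 and 9.59 and 9.98, 10.57 and 10.32 in the controls and at 9.57, 9.89 and 9.78 and 9.96, 10.37 and 10.51 at 1 day, without a call. Of 22 genes of repair Schwann cells, Id2 (an inhibitor of differentiation) rose by 0.58 ± 0.14 and the growth factor Hbegf by 0.65 ± 0.16, with adjusted p-values of 0.0426 and 0.0447, and 0.138 and 0.229 with sex as a term. Hbegf lost its call without any one of the 6 arrays, and Id2 without control replicates 2 or 3 or 1-day replicates 2 or 3. Jun, the master regulator of repair Schwann cells, stood at 8.33, 8.88 and 8.61 against 8.78, 9.27 and 9.03 (adjusted p = 0.142), with overlapping groups. Ngfr, the neurotrophin receptor that such cells raise, stood at 7.84, 7.95 and 7.66 against 7.66, 7.33 and 7.35 (adjusted p = 0.0981).

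The glia of the brainstem end gave no calls by limma for 20 oligodendrocyte genes (median change 0.05, and -0.15 without control replicate 3), of which 1 had an unadjusted p under 0.05. Nor did 16 satellite glia genes, of which 3 had. Mobp, a central myelin gene, stood at 10.98, 10.57 and 9.72 against 10.26, 10.55 and 10.55, and Mog at 7.01, 6.19 and 5.36 against 5.63, 6.16 and 6.45. Both were lowest in control replicate 3. Of 14 astrocyte genes 1 was called, S100b. Of 18 genes of the node of Ranvier, the anchoring protein Ank3 fell from 10.08, 10.30 and 10.25 to 9.97, 9.94 and 9.93 (adjusted p = 0.0379) and the potassium channel Kcnq3 rose from 8.34, 8.36 and 8.13 to 8.69, 8.69 and 8.52 (adjusted p = 0.0169). Their adjusted p-values with sex as a term were 0.0563 and 0.105; Ank3 lost its call without any one array but control replicate 1 and Kcnq3 without control replicate 3 or 1-day replicate 2. Of 27 genes of cholesterol synthesis, which supplies myelin, 1 fell: Fdft1, squalene synthase, from 9.44, 9.29 and 9.43 to 9.23, 8.99 and 9.01 (-0.31 ± 0.08, adjusted p = 0.0387; 0.121 with the term).

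**Figure D3:**
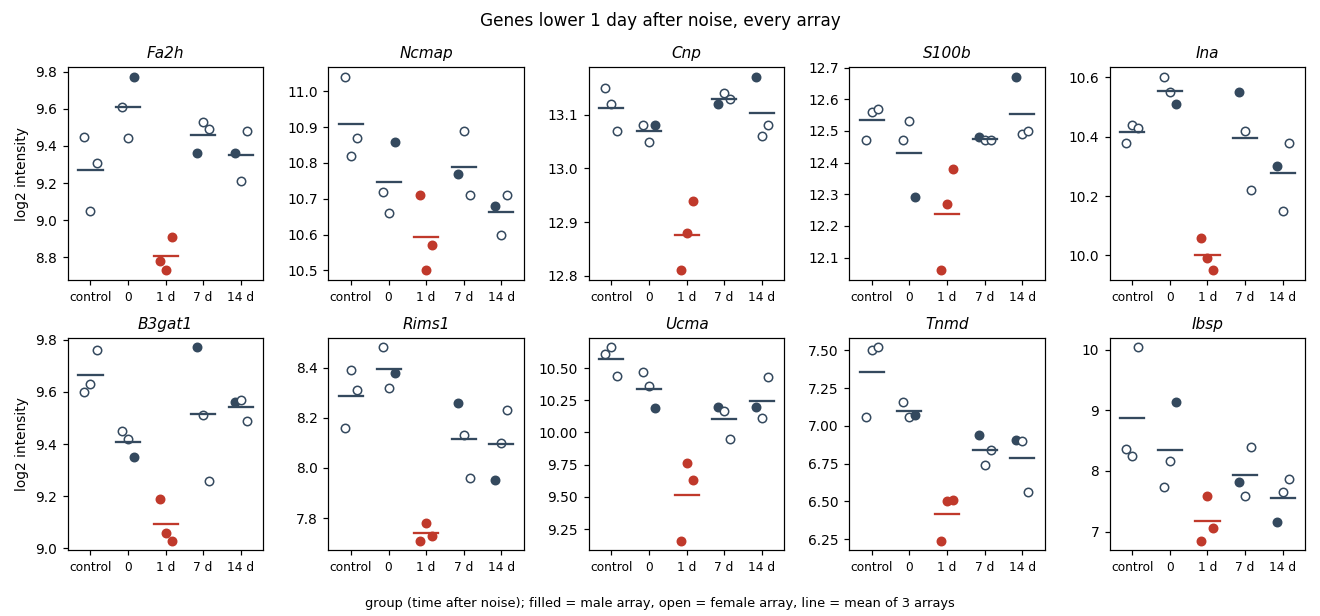
Log2 expression on each of the 15 arrays (vertical axis) by group (horizontal axis) for 10 genes that fell; filled points are males, open points females, red marks 1 day and the line is the group mean. In Cnp, Ina and B3gat1 all 3 one-day arrays lie below every control array. In Ibsp control replicate 3 stands above the other controls.

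Neurons answer an injury of their axon with a programme of stress and growth genes. Of 38 such genes tested, 8 rose and none fell (median change 0.15; 14 above all controls and 3 below). Gadd45a, a DNA damage and injury response gene, stood at 6.95, 6.97 and 6.95 in the controls and at 8.30, 9.07 and 9.01 at 1 day (1.84 ± 0.23, adjusted p = 0.00137). The controls were almost equal. Atf3, the transcription factor most used as a sign of axon injury, stood at 6.51, 7.03 and 6.78 against 8.06, 8.62 and 8.55 (1.64 ± 0.27, adjusted p = 0.00573). Vgf, a secreted neuropeptide precursor, stood at 4.68, 4.30 and 4.81 against 7.58, 7.42 and 7.51 (2.91 ± 0.34, adjusted p = 0.000876) with its controls around the dim-signal filter. These 3 kept their calls without each array and with sex as a term, at 0.0151, 0.0455 and 0.00742. The other rises were those of Smad1, a regulator of axon growth (0.41 ± 0.06), of the immediate early gene Csrnp1 (0.69 ± 0.18), of Chac1 and Asns, both targets of the integrated stress response (0.70 ± 0.14 and 0.29 ± 0.06), and of the tubulin Tubb6 (0.64 ± 0.16). None of these 5 was called with sex as a term (adjusted p from 0.0729 for Smad1 to 0.382 for Csrnp1), and Tubb6 lost its call without any one array. The list had 5, 6 and 5 rises without control replicates 1, 2 and 3 and 7, 4 and 4 without 1-day replicates 1, 2 and 3. Gap43 and Sox11, classical genes of regrowing axons, stood at 5.34, 5.26 and 5.32 and 8.06, 8.03 and 7.93 in the controls and at 5.52, 5.87 and 5.29 and 7.99, 7.91 and 7.70 at 1 day, without a call.

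The activity-regulated list of 32 genes, which are switched on within minutes of a stimulus in many cell types, had a median change of 0.37 and 3 rises. Beside Atf3 these were Fos, from 6.54, 7.24 and 6.97 to 8.49, 8.91 and 8.62 (1.76 ± 0.43, adjusted p = 0.0393), and Nfil3, from 6.03, 6.67 and 6.75 to 7.10, 7.77 and 7.39 (0.94 ± 0.20, adjusted p = 0.0193). Fos stood 2.96 above control right after the noise and 0.85 above it at 14 days. Fos lost its call without any one array and with sex as a term (0.114), as did Nfil3 with the term (0.183) and without control replicate 1 or 1-day replicates 2 or 3.

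Some genes that define spiral ganglion neurons fell by small amounts. Of 30 tested, 4 fell and none rose; the median change was -0.18, with 14 genes below all controls and 1 above. B3gat1, which makes the HNK-1 sugar epitope, stood at 9.60, 9.63 and 9.76 against 9.19, 9.06 and 9.03 (-0.57 ± 0.10, adjusted p = 0.00633; 0.0333 with sex as a term). Calb2, the gene of the calcium buffer calretinin, stood at 13.60, 13.64 and 13.60 against 13.35, 13.35 and 13.39 (-0.25 ± 0.05, adjusted p = 0.0174), and Lypd1, which binds nicotinic receptors, at 10.99, 11.11 and 11.05 against 10.71, 10.62 and 10.74 (-0.36 ± 0.06, adjusted p = 0.00665). Every 1-day array lay below every control in these 3. On a second, dimmer probe set Lypd1 went from 7.23 to 7.27, and its call ended with the mean over probe sets (-0.16, adjusted p = 0.252). Calb2 and Lypd1 were not called with sex as a term (0.133 and 0.101), and Calb2 not without control replicates 2 or 3 or 1-day replicate 2. The fourth fall was Ttn, listed for a neuron subtype and better known as the giant protein of muscle, from 6.65, 6.48 and 6.64 to 5.48, 5.41 and 5.72 (-1.05 ± 0.24, adjusted p = 0.0291); it was called with sex as a term (0.0428) and lost its call without any one of the 6 arrays. The mean level over 7 skeletal muscle genes ranged from 7.59 to 7.70 in the controls and from 7.41 to 7.54 at 1 day, and its part in the fall of Ttn was not tested. Without control replicates 1, 2 and 3 the neuron list had 3, 3 and 2 falls, and without 1-day replicates 1, 2 and 3 it had 4, 2 and 3. The mean level over the neuron list went from between 7.85 and 7.88 to between 7.69 and 7.74.

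Of 31 genes of the neuronal skeleton and identity, 1 fell and 2 rose. Ina (an intermediate filament subunit) fell from 10.38, 10.44 and 10.43 to 10.06, 9.99 and 9.95 (-0.42 ± 0.07, adjusted p = 0.009; 0.0456 with sex as a term). Nefl, its partner, stood at 13.45, 13.37 and 13.46 against 13.34, 13.19 and 13.24, below all controls on every array and just short of the threshold (adjusted p = 0.0504). Tubb3, a neuronal tubulin, stood at 9.46, 9.40 and 9.48 against 9.42, 9.40 and 9.44. Beside Tubb6, Uchl1, a ubiquitin hydrolase of neurons, rose from 9.59, 9.64 and 9.39 to 10.22, 10.06 and 9.93 (0.53 ± 0.08, adjusted p = 0.00427; 0.0661 with the term).

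Of 25 genes of synaptic vesicles and release, 3 fell and 1 rose. Rims1, a scaffold of the release site, stood at 8.16, 8.39 and 8.31 against 7.71, 7.78 and 7.73 (-0.55 ± 0.09, adjusted p = 0.00573). The vesicle protein Sv2b stood at 9.75, 9.71 and 9.77 against 9.53, 9.30 and 9.27 (-0.38 ± 0.09) and Vamp1, the vesicle fusion protein, at 11.73, 11.71 and 11.61 against 11.45, 11.42 and 11.49 (-0.23 ± 0.06). Syt4, a synaptotagmin, rose from 9.11, 9.13 and 9.07 to 9.48, 9.50 and 9.42 (0.36 ± 0.07, adjusted p = 0.0163). None of the 4 was called with sex as a term, where Rims1 was nearest at 0.0696. Of 36 channel genes, Kcnq3 rose and 3 fell: Scn4b, a sodium channel subunit, from 10.06, 10.20 and 10.37 to 9.69, 9.75 and 9.80 (-0.46 ± 0.08, adjusted p = 0.00916; 0.0412 with the term), the fast potassium channel Kcnc1 by -0.43 ± 0.10 and the leak channel Kcnk1 by -0.34 ± 0.08 (adjusted p with the term 0.0428 and 0.0822). The granin Chga, cargo of dense-core vesicles, went from 9.82, 9.86 and 9.91 to 9.53, 9.45 and 9.42 (adjusted p = 0.0291, and 0.0375 with the term). Resp18, of the list of neuropeptides and granins, went from 10.64, 10.57 and 10.60 to 10.22, 10.19 and 10.23 (adjusted p = 0.0131, and 0.0822 with the term). Both were called without the term, in the opposite direction to Vgf of the same list. Chga and Sv2b lost their calls without any one array but 1-day replicate 1, Kcnc1 without control replicates 2 or 3 or 1-day replicates 2 or 3, and Resp18 and Syt4 without control replicate 3 or 1-day replicate 2. No call was made by limma among 20 glutamate and GABA receptor genes or 12 neurotrophin genes, of which 2 and 5 had an unadjusted p under 0.05.

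The matrix class had few rises. Timp1, an inhibitor of matrix proteases, stood at 6.02, 5.64 and 5.67 in the controls and at 7.23, 7.54 and 7.00 at 1 day (1.48 ± 0.23, adjusted p = 0.00449; 0.0428 with sex as a term), and was the only call among 27 protease and inhibitor genes. Its 2 groups did not overlap. Col16a1, a fibril-associated collagen, stood at 7.59, 7.67 and 7.74 against 8.30, 8.72 and 8.43 (0.82 ± 0.10, adjusted p = 0.000917; 0.0151 with the term), the only call among 22 fibrillar and fibril-associated collagen genes. Tgfbi, a matrix protein induced by TGF-beta, stood at 9.60, 9.80 and 9.57 against 10.34, 10.42 and 10.42 (0.74 ± 0.10, adjusted p = 0.00163) and stood 1.14 above control right after the noise. Pcolce, which speeds the maturation of collagen, rose by 0.54 ± 0.14 (adjusted p = 0.045) and lost its call without any one array and with sex as a term (0.273). No call was made by limma among 27 TGF-beta and fibroblast response genes, of which 2 had an unadjusted p under 0.05. Fn1, fibronectin, stood at 10.15, 9.62 and 9.73 against 10.08, 9.60 and 10.07, with overlapping groups, and Col1a1 at 5.89, 5.84 and 8.84 against 5.61, 5.82 and 5.81, where control replicate 3 stood far above the rest.

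Falls were found among basement membrane, bone, cartilage and tendon genes. Of 22 basement membrane genes 3 fell: Col4a3 from 6.25, 6.02 and 6.03 to 5.59, 5.03 and 5.11 (adjusted p = 0.0413), the laminin chain Lamc3 from 6.28, 6.20 and 6.42 to 5.88, 5.86 and 5.61 (adjusted p = 0.0144) and Sparc, a collagen-binding glycoprotein, from 11.84, 11.90 and 12.04 to 11.60, 11.57 and 11.66 (adjusted p = 0.0217). None was called with sex as a term (0.105, 0.132 and 0.205), and the list had 2, 1 and 0 falls without control replicates 1, 2 and 3 and 4, 1 and 1 without 1-day replicates 1, 2 and 3. Fbn2, a fibrillin of elastic fibres, fell by 0.67 from 5.69, 5.85 and 5.96 to 5.06, 5.25 and 5.19 (adjusted p = 0.0155), a call lost without control replicate 3 and with sex as a term (0.0706).

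Of 18 cartilage and tendon genes 3 fell, and their groups did not overlap. Ucma, a cartilage protein, stood at 10.61, 10.66 and 10.44 against 9.16, 9.76 and 9.63 (-1.05 ± 0.13, adjusted p = 0.00131; 0.0316 with sex as a term). Tnmd, tenomodulin of tendon cells, stood at 7.06, 7.50 and 7.52 against 6.24, 6.50 and 6.51 (-0.94 ± 0.13, adjusted p = 0.00186; 0.0222 with the term). Acan, the cartilage proteoglycan aggrecan, stood at 8.52, 8.89 and 8.76 against 8.21, 8.19 and 8.17 (-0.53 ± 0.09, adjusted p = 0.00539; 0.0639 with the term) and was -0.54 against control right after the noise. Of 11 bone genes 3 fell, with a list median of -0.81 (-0.36 without control replicate 3). The list's median also lay below control right after the noise, at 7 and at 14 days (-0.38, -0.42 and -0.48). Against the other noise times 0 bone genes were called at 1 day. Ibsp, bone sialoprotein, stood at 8.36, 8.25 and 10.04 against 6.85, 7.59 and 7.06 (-1.72 ± 0.43, adjusted p = 0.0426; a change of -1.14 without control replicate 3). Dmp1, an osteocyte gene, stood at 11.48, 11.41 and 12.01 against 10.57, 11.05 and 10.85 (-0.81 ± 0.19, adjusted p = 0.0333), and Omd, osteomodulin, at 8.86, 8.87 and 8.92 against 8.07, 8.14 and 8.09 (-0.78 ± 0.14, adjusted p = 0.00783). Ibsp and Dmp1 lost their calls without control replicate 3 and without each 1-day array, Dmp1 also without control replicate 1, and no bone gene was called with sex as a term (Omd was nearest, at 0.0529). The mean level over the bone list ranged from 7.61 to 8.77 in the controls and from 7.14 to 7.45 at 1 day; how much bone each dissection kept was not tested. Otos stood at 13.78, 13.92 and 13.91 against 13.21, 13.42 and 13.45 (-0.51 ± 0.06, adjusted p = 0.000994; 0.0232 with the term) while the mean level over 14 lateral wall genes lay between 9.41 and 9.53 in the controls and between 9.39 and 9.64 at 1 day.

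Several of the larger falls lay outside the 4 classes. Hpgd, which breaks down prostaglandins, stood at 7.98, 7.63 and 7.84 against 6.78, 6.75 and 6.73 (-1.06 ± 0.14, adjusted p = 0.00151; 0.0185 with sex as a term). Tfrc, the transferrin receptor that brings iron into cells, stood at 11.65, 11.57 and 11.59 against 10.75, 10.72 and 10.77 (-0.86 ± 0.11, adjusted p = 0.00131, and 0.0101 with the term), with both groups tight. The array's control probe sets for this gene were also below control at 7 days (-0.37, -0.85 and -0.69) and at 14 days (-0.40, -0.83 and -0.62). The adhesion gene Cdh9 fell from 8.91, 8.43 and 8.57 to 7.68, 7.70 and 7.88 (adjusted p = 0.00577; 0.0234 with the term). Thap2, Sfi1 and the zinc-finger gene Zfp563 had changes of -0.96, -0.92 and -0.86 (adjusted p = 0.0105, 0.00247 and 0.0268; 0.0822, 0.0694 and 0.0516 with the term). Thap2 lost its call without control replicate 3 or 1-day replicate 2, and Zfp563 without any one array but 1-day replicate 1. In Sfi1 the other probe set, near background, had a change of -0.10.

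A second comparison, without the control arrays, set the 1-day arrays against the mean of the other 3 noise times. In it 703 genes (5.15%) were higher and 946 (6.93%) lower at 1 day, 1649 together. The total was 671 with sex as a term, and 1117, 559 and 847 without 1-day replicates 1, 2 and 3. The immune class had 61 genes higher and 0 lower, the glial class 5 and 27, the neuronal class 14 and 39 and the matrix class 11 and 10. With the term these counts were 31 and 0, 3 and 17, 5 and 21, and 5 and 6, and without 1-day replicate 2 they were 28 and 0, 1 and 14, 4 and 13, and 7 and 5. Without 1-day replicate 3 they were 34 and 0, 3 and 20, 8 and 19, and 8 and 8, and without replicate 1 they were 53 and 0, 4 and 20, 11 and 20, and 8 and 3. Ccl12 was 3.28 higher (adjusted p = 0.000146), Cd68 1.75 higher (0.000123), C1qb 1.21 higher (0.000227) and Vgf 2.12 higher (0.000497) than at the other times. Against control, Cd68 stood at 0.12, 0.20 and 0.28 right after, at 7 and at 14 days, and C1qb at -0.14, -0.02 and -0.06. Vgf stood at 0.61, 1.27 and 0.46 against control at those times. Fos was not set apart at 1 day (0.14, adjusted p = 0.851), nor was Acan (-0.06, 0.648), Hbegf (0.15, 0.525) or Btla (-0.16, 0.541). Fa2h and Cnp stood at -0.67 and -0.22 against the other times (adjusted p = 0.000464 and 0.00114), and Otos -0.52 (0.000123). In the cholesterol list 8 of 27 genes were lower and 1 higher. Against control that list's median was -0.053 at 1 day and 0.15, 0.077 and 0.057 right after, at 7 and at 14 days. The glial class had medians of -0.0033 at 1 day and 0.073, 0.057 and 0.043 at those times. The lower counts in this comparison thus also hold the higher levels at the other times.

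**Figure D4:**
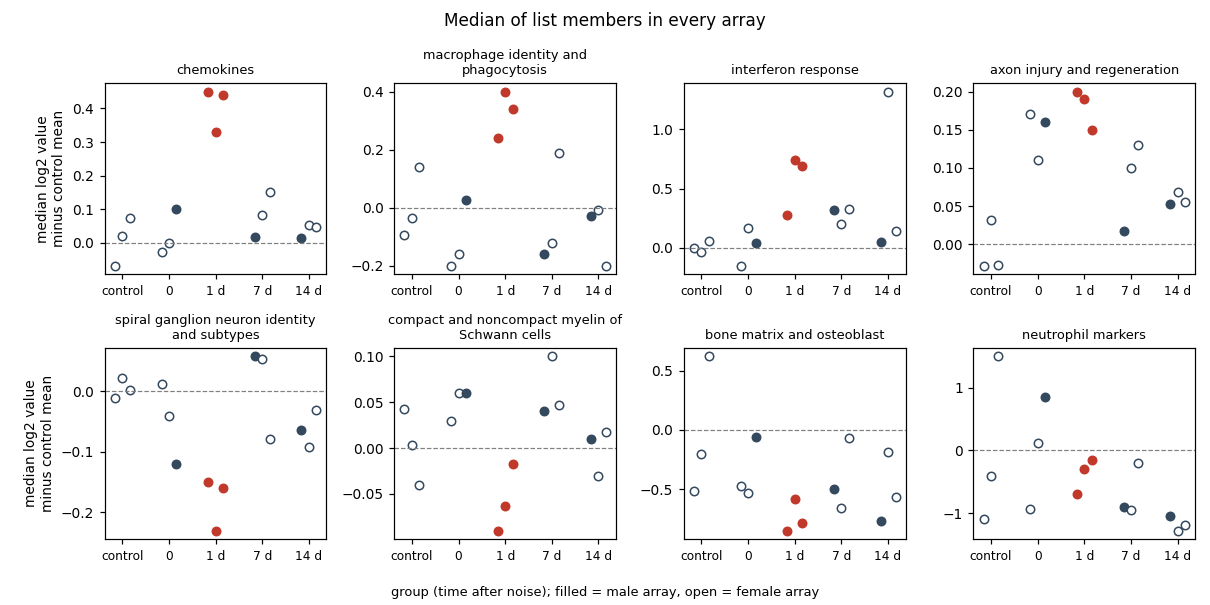
Median over each list's tested genes of the value minus the control mean, on each of the 15 arrays (vertical axis, log2), by group (horizontal axis); filled points are males, open points females and red marks 1 day. The macrophage list reaches 0.24 to 0.40 on the 1-day arrays, while the neutrophil list spans -1.1 to 1.5 among the controls alone.

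Because the 1-day animals were all male, the same contrast was drawn against the 3 other noise-exposed males alone (1 from each other time), a fit with 4 residual degrees of freedom. There 114 genes (0.836%) were higher and 139 (1.02%) lower at 1 day. The immune class had 34 higher and 0 lower, the glial class 0 and 9, the neuronal class 2 and 7 and the matrix class 6 and 6. Cd68 was 1.84 higher (adjusted p = 4.47e-05), Vgf 2.45 (4.47e-05), C1qb 1.09 (0.000328) and Ccl12 3.29 (0.0175). Fa2h was -0.69 (0.0256), Cnp -0.25 (0.0488), Ina -0.45 (0.027), Otos -0.52 (0.0192) and Tfrc -0.63 (0.0108). Among males Socs3 was not called, at 1.25 (0.468), nor were Osmr at 0.66 (0.44), Ccl2 at 0.53 (0.617), Tgfbi at 0.27 (0.683), Fos at 0.34 (0.876) and Atf3 at 0.89 (0.13). This contrast holds sex fixed but not time, since each of the other males stands for a different time after noise.

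**Figure D5:**
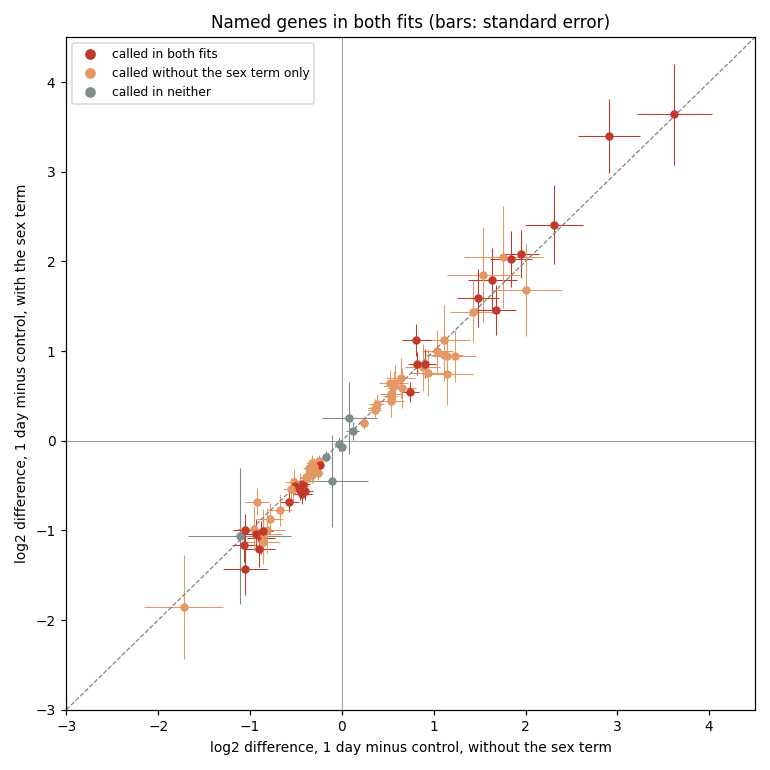
Change from control to 1 day of each named gene without sex in the model (horizontal axis, log2) against the change with sex as a term (vertical axis, log2), with standard errors as bars and the line of equal values; red points are called in both fits, orange points without the sex term only and grey points in neither. The points lie along the line, from Ibsp at -1.72 and -1.85 to Ccl12 at 3.62 and 3.64, and the vertical bars are the longer ones.

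Of the 72 named genes called against control, 30 kept their call without each of the 6 arrays in turn and 42 lost it without at least 1. The genes that kept it in all 6 cases and with sex as a term were 21: the immune genes Ccl12, Cxcl10, Cd68, Ms4a6d and Ctsc; the glial gene Cnp; the neuronal genes Vgf, Gadd45a, Atf3, Ina, B3gat1 and Scn4b; the matrix genes Timp1, Col16a1, Tgfbi, Tnmd, Ucma and Otos; and Hpgd, Tfrc and Cdh9. Cxcl10 and Ms4a6d had passed the dim-signal filter only through their 1-day values. Of these 21, Ctsc lost its call with the mean over probe sets (0.34, adjusted p = 0.0858). That setting also ended the calls of Ank3, Col4a3, Dmp1, Fdft1, Gbp2, Gbp3, Ibsp, Id2, Kcnc1, Kcnq3, Lypd1, Pcolce, S100b, Sparc, Ttn and Tubb6. A call that ended there does not always mean that probe sets disagree. Gbp3 has a single probe set and those of Gbp2 changed by 1.11 and 1.12, while those of Lypd1 did disagree. Among genes of cell state, Srxn1, an antioxidant enzyme, rose from 8.58, 8.55 and 8.55 to 9.09, 9.16 and 9.16 (0.58 ± 0.05, adjusted p = 0.000152; 0.00279 with sex as a term), 1 of 15 antioxidant genes tested, and the 14 glucocorticoid-response genes held no call by limma, with 3 at an unadjusted p under 0.05.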

How the data were processed

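Total RNA (50 ng) was amplified and hybridised to 3' expression arrays of Affymetrix for the whole mouse genome, per the labels' protocols; the submitters' processing notes name Affymetrix Expression Console, RMA and MAS5 without roles or versions. The authors deposited 1 table of log2 values for 15 arrays and 45101 probe sets, in which array medians lay between 5.87 and 5.92; the background correction and normalization behind them are not given in the sources used here, and such steps compress changes of dim probe sets. Of the probe sets, 34945 had 1 gene symbol, 932 several, 9160 none and 64 were controls. For each of 18193 genes the brightest 1-gene probe set (highest mean of the 15 arrays) was kept, and genes in the lowest 25% of that mean (under 4.70) were dropped. That mean includes the 1-day arrays, so a gene dim in the other groups could enter through its 1-day values. Among the named genes, Cxcl10 and Ms4a6d entered in this way, and Ccl12 lay at the edge. The control means of Cxcl10 and Ms4a6d were 4.24 and 4.36, and their 1-day means 6.55 and 6.04. Both kept their calls with no filter. Counts and medians over the tested members of a list can be tilted toward rises for this reason. With no filter 31 immune genes were called, beside 32. The array number, 3 per group, limits the precision.

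A model with 1 mean per group (5 groups, 10 residual degrees of freedom) was run in limma 3.58.1 under R 4.3.3, with the trend option of eBayes, 2-sided tests and Benjamini-Hochberg adjustment over all 13644 genes, and called at an adjusted p under 0.05. Contrasts were 1 day minus control and 1 day minus the mean of the other noise times. The fit was tested on simulated data with known changes. Gene lists are counted beside all genes and not tested. The genes named are the 12 largest non-overlapping called changes each way, the 3 largest called changes per list and a few genes always named; the text adds the other called members of each list, uncalled members that show a list's spread, and genes said to be chosen after their values were seen. The classes, lists and settings were chosen with earlier results of these data known. Probe sets with suffixes such as _x_at and _s_at can bind several related transcripts, among them those of Gbp2, Cnp, Socs3 and Dmp1. The labels do not say that replicate numbers pair samples, and the main fit did not pair them. Deviations of same-numbered control and 1-day arrays had correlations of 0.12, -0.07 and 0.02. Unlike numbers were not compared, so these values cannot settle whether numbers share a day or batch.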

Additional observations from a re-analysis of the deposited data

Results flagged for a closer look

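For 5 named genes the change at 1 day had the opposite sign to the mean change at the other 3 noise times. They were picked from the called genes for this, with both sizes at least 0.1. A difference between 1 day and the other times that passed the test (limma, adjusted p) was also required. Passing it is thus no separate result. The mean changes at the other times were small and were not tested against control. Cd52 was 1.54 higher at 1 day than at the other times (adjusted p = 0.000558), where it lay at -0.11 against control. Fcer1g was 0.73 higher (adjusted p = 0.000681), against -0.16. Fa2h stood at -0.67 (adjusted p = 0.000464), against 0.20 above control at the other times. Thap2 stood at -1.16 (adjusted p = 0.00041), against 0.20, and Fdft1 at -0.42 (adjusted p = 0.00105), against 0.10. With sex as a term the adjusted p-values of these differences were 0.00629, 0.00619, 0.00529, 0.00529 and 0.00707.

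Some probe sets outside the genes tested were called as well. Of 699 annotated to several genes 9 were called higher at 1 day and 0 lower. Of 6870 with no gene symbol 5 were called higher and 1 lower. With sex as a term both kinds held 0 calls. Each kind was fitted and adjusted on its own. These shares are therefore not at the same threshold as the 3.18% of the genes tested that were called. Of the array's 64 control probe sets, also fitted on their own and without the filter, 3 were called lower, and 3 with the term. The last are the transferrin receptor control sets, with changes of -0.62, -0.94 and -0.68 beside -0.86 for Tfrc itself. None of them was called at 1 day against the other noise times (limma, adjusted p = 0.138, 0.138 and 0.243).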

How the results depend on the processing

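The direction of all 434 called genes was the same with sex as a term. Counts of calls depended on the setting. Of all genes, 434 were called, 75 with sex as a term and 1106 with array weights; leaving out 1 array gave 112 to 466. Immune calls numbered 32, and 10 with sex as a term, 16 with the lowest 50% left out, 56 with array weights and 52 with only the 2 groups fitted; leaving out 1 array gave 13 to 33. Glial calls numbered 11, and 1 with sex as a term, 6 with the mean over probe sets, 4 without the trend, 20 with array weights and 5 with only the 2 groups; leaving out 1 array gave 1 to 8. Neuronal calls numbered 26, and 9 with sex as a term and 52 with array weights; leaving out 1 array gave 10 to 28. Matrix calls numbered 15, and 6 with sex as a term and 29 with array weights; leaving out 1 array gave 8 to 16. Calls against the other noise times numbered 1649, and 671 with sex as a term and 253 with male arrays alone; leaving out 1 array gave 559 to 1823. With the replicate block 567 genes were called against control and 1901 against the other noise times. The calls against control numbered 39, 14, 27 and 21 in the immune, glial, neuronal and matrix classes. The labels do not say that the numbers pair the samples. The cause of these shifts was not tested, beyond the lower number of arrays or genes that some settings use by construction. Of the named genes, 46 lost their call with sex as a term, 17 with the mean over probe sets, 20 without the trend, 10 with only the 2 groups, 6 with no filter and 3 with the replicate block. Directions turned only in genes that were not called, and in Yy1 with the mean over probe sets (0.10): Fn1 with the mean over probe sets (-0.06) and without control replicate 2 (-0.02; -0.02 to 0.24 over arrays left out), Mbp with sex as a term (-0.07), without control replicates 2 and 3 (-0.02 each) and without 1-day replicate 3 (-0.01; -0.02 to 0.06), and Mog with array weights (0.14), without control replicate 1 (0.31) and without 1-day replicate 1 (0.12; -0.52 to 0.31). Signals near the dim filter, as in Ccl12, Cxcl10, Ccl2, Ms4a6d and Vgf in the controls, limit the size of the folds.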

Other observations

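The following groups and genes were chosen after their values were seen and have no test of their own. Zinc-finger genes whose symbols begin with Zfp had more falls than rises at 1 day: of 297 tested, 20 fell and 1 rose against control, where 1.66% of all genes fell and 1.52% rose. Their median change was -0.11, beside -0.01 over all genes, and 82 had all 1-day arrays below all controls against 13 above, where 12.5% of all genes lay below and 10.1% above. Against the other noise times 49 were lower and 7 higher, where 6.93% and 5.15% of all genes were. With sex as a term 2 fell and 0 rose, with the median at -0.20. The falls numbered 4, 11 and 3 without control replicates 1, 2 and 3 and 36, 4 and 6 without 1-day replicates 1, 2 and 3.

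Single genes outside the lists also stood apart. Fgf21, a stress hormone of metabolism, rose by 0.84 ± 0.16 (SE, n = 3, limma adjusted p = 0.0118; 0.0455 with sex as a term). Crym, a thyroid hormone-binding protein, rose by 0.75 ± 0.10 (adjusted p = 0.00163; 0.0412 with the term), from 5.81, 5.80 and 6.03 to 6.81, 6.55 and 6.52. Kif23, a motor of dividing cells, rose by 0.82 ± 0.18 (adjusted p = 0.0248; 0.125 with the term). Of 15 cell cycle genes Mcm4 and Ccnd1 rose (adjusted p = 0.0255 and 0.0314), and neither was called with the term (0.132 and 0.0715). Sema3e, an axon guidance signal, went from 10.30, 10.21 and 10.35 to 9.74, 9.70 and 9.68 (adjusted p = 0.0342; 0.0729 with the term). Sox8, a glial transcription factor, went from 7.31, 7.45 and 7.30 to 6.57, 6.73 and 6.83 (adjusted p = 0.0365; 0.0428 with sex as a term).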
